A study of Homo sapiens with 3 samples.

Results

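Matrix proteases, the urokinase system and their inhibitors were examined in TE5, a line of human esophageal squamous carcinoma, after transfection with short hairpin RNA against KLF5. KLF5, of the Krüppel-like zinc finger family, is a transcription factor active in dividing epithelial cells. The 10 members were the genes MMP1, MMP9, MMP10, MMP13, MMP14, MMP28, PLAU, PLAUR, TIMP1 and TIMP2, chosen by name. Of these, 9 had values, out of 52992 genes in all. For MMP28, 0 of 7 transcripts were matched, and it was not analysed here. RNA was sequenced from 2 libraries of the shKLF5 group, numbered 1 and 2 in the labels, and from 1 library of the scramble group, all harvested after 48 h. All 3 libraries share the TE5 background and the transfection. The labels do not say whether the shKLF5 libraries are separate hairpins or separate cultures, so p-values reflect only how far these 2 libraries differ, a spread that could be technical. The lone scramble library is taken to vary to the same extent.

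Matrix metalloproteinases are zinc enzymes that are made as inactive precursors and cut collagens and other proteins of the extracellular matrix. Urokinase, the product of PLAU, converts plasminogen to plasmin at the cell surface, where it is held by its receptor PLAUR, and plasmin in turn can activate several metalloproteinase precursors. The tissue inhibitors TIMP1 and TIMP2 bind the active site of these enzymes, and TIMP2 also takes part in the activation of MMP2 by the membrane-bound MMP14. In squamous carcinomas these proteases are known for their part in invasion, and some are made by tumor cells and others by the stroma.

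The libraries held 33544752 estimated counts for shKLF5 library 1, 32720563 for shKLF5 library 2 and 33448976 for scramble. KLF5, the targeted gene, had 1333 and 1531 counts in the shKLF5 libraries against 8402 in scramble, which was 8.50-fold and 7.18-fold lower after TMM scaling. All 11 squamous markers were detected in every library, with a summed level of 2571 and 1458 CPM in the shKLF5 libraries against 10124 CPM in scramble, where CPM are counts scaled to library size after TMM scaling. All 11 were lower in both shKLF5 libraries after TMM scaling, and 10 with library size alone. Of all genes tested, 36.5% were lower in both after TMM scaling. Markers of other cell types, which a cell line should not hold as separate cells, had lower sums. Among them COL1A1 was not low, at 61.3 and 43 CPM in shKLF5 against 48.6 CPM in scramble. COL3A1 stood at 12.1 and 1.38 CPM against 18.2 CPM. The 9 fibroblast markers summed to 76.7 and 46.9 CPM in shKLF5 against 68.2 CPM in scramble, the 8 leukocyte markers to 11.6 and 16.9 CPM against 5.60 CPM, and the 4 endothelial markers with values to 7.51 and 10.4 CPM against 3.35 CPM. In scramble POSTN, CD3E, LYZ, CDH5 and KDR were at 0 counts. Of the fibroblast markers that passed the filter on low counts, 3 of 7 were higher in both shKLF5 libraries. The same held for 5 of 6 leukocyte markers and 3 of 3 endothelial ones. Of these higher markers, 3 of the fibroblast, 3 of the leukocyte and 2 of the endothelial ones passed the filter through the shKLF5 libraries alone, which set their direction. Over all genes tested 37.9% were higher in both shKLF5 libraries, and 58.2% of those with a mean of 5 to 50 counts per library. The part of these markers in the results for the proteases was not tested.

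In TE5 the system consisted mainly of the membrane-type protease, both inhibitors and the receptor, while the secreted collagenases and urokinase were nearly silent. Levels between genes are given in TPM, which are divided by transcript length and scaled to the same total in each library. TIMP1 averaged 59.7 ± 18.6 TPM in shKLF5 (SD, n = 2) and stood at 42.2 TPM in scramble. MMP14 averaged 47.9 ± 12.9 TPM in shKLF5 (SD, n = 2) and stood at 42.8 TPM in scramble. TIMP2 followed with 20.8 ± 12.7 TPM against 26.4 TPM, and PLAUR with 15.7 ± 3.77 TPM against 11.1 TPM. The shKLF5 means of TIMP1 and MMP14 lay within each other's spread between libraries, but TIMP1 ranked above MMP14 in each shKLF5 library. In scramble MMP14 ranked above TIMP1. The mean of PLAUR lay within the spread of TIMP2, and their order differed between the shKLF5 libraries.

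Below these came MMP10 with 3.15 ± 0.733 TPM in shKLF5 (SD, n = 2) against 0.85 TPM in scramble, and MMP1 with 0.676 ± 0.303 TPM against 0.50 TPM. MMP13, PLAU and MMP9 all lay under 1 TPM in every library. MMP14 made up 93.6% and 89.8% of the summed TPM of the 5 metalloproteinases with values in the shKLF5 libraries, and 96.7% in scramble. The sum itself was 60.9 and 43.2 TPM in shKLF5 against 44.2 TPM in scramble.

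**Figure D1:**
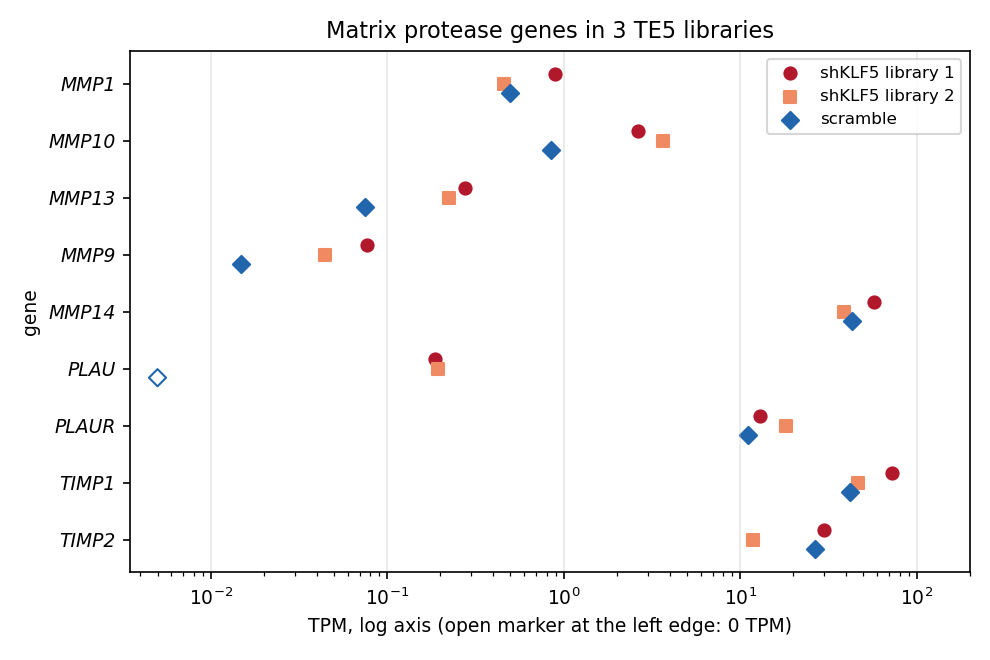
Level of each gene in TPM on a log axis, with 1 marker per library (shKLF5 library 1, shKLF5 library 2, scramble). The open marker shows PLAU at 0 TPM in scramble, and MMP14, PLAUR, TIMP1 and TIMP2 lie above 10 TPM in all 3 libraries.

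No member passed the test of shKLF5 against scramble over all genes. By the quasi-likelihood test of edgeR, 0 of the 8 members that passed the filter on low counts had a Benjamini-Hochberg adjusted p under 0.05, and the background was the same, with 0% of 20629 genes called. At an unadjusted p under 0.05 there were 2 members, MMP10 and PLAU, both higher. PLAU came through the filter by the shKLF5 libraries alone, which set its direction. Over all genes 5.68% were higher at that limit, 3.5% were lower and 9.18% passed it in either direction. DESeq2 called 0 members and 0.562% of all genes, and edgeR's legacy fit called 0 members and 0.102% of all genes. DESeq2 gave no adjusted p for 2 of the 8, MMP13 and PLAU. KLF5, the targeted gene, was called by DESeq2 and by edgeR's legacy fit, but not by the quasi-likelihood test.

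By value, 4 of the 9 members, MMP9, MMP10, MMP13 and PLAU, were higher in both shKLF5 libraries than in scramble after TMM scaling, and MMP14 and TIMP2 were lower in both, while with library size alone 6 members, PLAUR and TIMP1 among them, were higher in both and 0 were lower in both. MMP1, PLAUR and TIMP1 lay above scramble in one shKLF5 library and below it in the other. Over all genes tested, 37.9% had both shKLF5 libraries above scramble and 36.5% had both below it after TMM scaling. With library size alone these shares are not given here, nor beside the lists of other genes. The median log2 fold change of all genes was then 0.467, against 0.039 with TMM. The 4 higher members were at least 2-fold higher in each library, PLAU by the floor set for 0 counts. Of the 4, MMP9 did not pass the filter and MMP13 and PLAU passed it through the shKLF5 libraries alone, which leaves MMP10. Of all genes tested, 10.3% were at least 2-fold higher in both libraries. At least 2-fold lower in both were 0 members and 2.41% of all genes tested. The share of higher genes differed with abundance, and genes with at least 10 counts numbered 19304 and 19422 in the shKLF5 libraries against 16920 in scramble, whose part in these counts was not tested. Among genes with a mean of 5 to 50 counts per library 25.4% were at least 2-fold higher in both, among those with 50 to 500 counts 5.05%, and among those with 500 to 5000 counts 0.704%. MMP1, MMP13 and PLAU fall in the lowest of these ranges and MMP10 in the middle one, and MMP9 lay below them all.

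**Figure D2:**
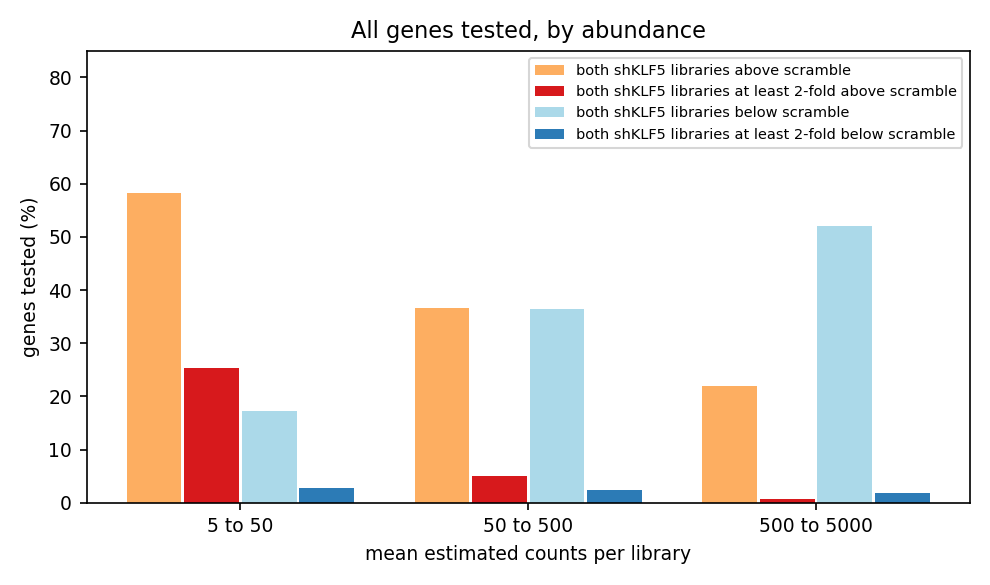
Share of all genes tested, in percent, with both shKLF5 libraries above or below scramble, and by at least 2-fold, for 3 ranges of mean counts per library. Genes with 5 to 50 counts were higher in both in 58.2% of cases and lower in both in 17.3%, while those with 500 to 5000 counts were higher in 22.0% and lower in 52.0%.

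Of the secreted metalloproteinases among the members, MMP10 had the smallest unadjusted p. MMP10 encodes stromelysin 2, an enzyme of migrating keratinocytes that cuts several matrix proteins and activates other metalloproteinase precursors. MMP10 (ENSG00000166670; GRCh38 chromosome 11, 102770503 to 102780628, minus strand) had 125 and 182 counts in the shKLF5 libraries against 42 in scramble, or 3.49 and 5.23 CPM against 1.58 CPM. Both shKLF5 libraries lay above scramble, by 2.21-fold in library 1 and 3.31-fold in library 2. The log2 fold change was 1.46 with SE 0.60 and a 95% interval of 0.08 to 2.84. The unadjusted p by edgeR's quasi-likelihood test was 0.0405 and the adjusted p 0.525, and DESeq2 gave an adjusted p of 0.851. All of its counts came from 1 transcript, MMP10-201, with 0 counts for MMP10-202. The pseudogene WTAPP1 overlaps MMP10 and MMP1 on the opposite strand, with 32 and 28 counts in shKLF5 against 13 in scramble. The use of strand is not given in the sources used here, so reads of WTAPP1 and of these genes cannot be told apart where they overlap.

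The interstitial collagenases MMP1 and MMP13, which cleave fibrillar collagen, were close to the limit of detection. MMP1 (ENSG00000196611; chromosome 11, 102789920 to 102798160, minus strand) had 48 and 26 counts in shKLF5 against 28 in scramble. The scramble value lay between the shKLF5 libraries, and the log2 fold change was -0.01 with SE 0.66 and a 95% interval of -1.55 to 1.52. MMP13 (ENSG00000137745; chromosome 11, 102942995 to 102955734, minus strand) had 15 and 12 counts in shKLF5 against 4 in scramble. Both shKLF5 libraries were above scramble, with a log2 fold change of 1.32 with SE 0.88 and a 95% interval of -0.71 to 3.35. MMP13 passed the filter through the shKLF5 libraries alone, so that its direction was set by the filter and supports nothing.

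MMP9, the gelatinase that degrades denatured collagen and the collagen of basement membranes, was the lowest member in both shKLF5 libraries. MMP9 (ENSG00000100985; chromosome 20, 46008908 to 46016561, plus strand) had 5 and 3 counts in shKLF5 against 1 in scramble and did not pass the filter. The ratio of the summed shKLF5 counts to scramble, after TMM scaling, was 3.01, with a 95% interval of 0.404 to 134 that covers counting error only. A change in MMP9 was therefore not detectable at this depth. SLC12A5-AS1, which overlaps MMP9 on the opposite strand, had 19 and 3 counts in shKLF5 against 7 in scramble, more than MMP9 in shKLF5 library 1 and in scramble.

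MMP14, the membrane-anchored metalloproteinase, was abundant in all libraries. MMP14 (ENSG00000157227; chromosome 14, 22836557 to 22849027, plus strand) had 5212 and 3809 counts in shKLF5 against 4220 in scramble. After TMM scaling this was 145 and 110 CPM in shKLF5 against 159 CPM in scramble, with both shKLF5 libraries below it. The log2 fold change was -0.32 with SE 0.36 and a 95% interval of -1.15 to 0.52 and the adjusted p by edgeR's test 0.80. Its sign turned with library size alone (0.11) and on the log2 scale of TPM + 1 (0.13). The main coding transcript MMP14-201 held 5104 and 3690 of the counts in shKLF5 and 4050 in scramble. MMP14-205, a transcript without a coding sequence, had 0 and 70 counts in shKLF5 against 126 in scramble.

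**Figure D3:**
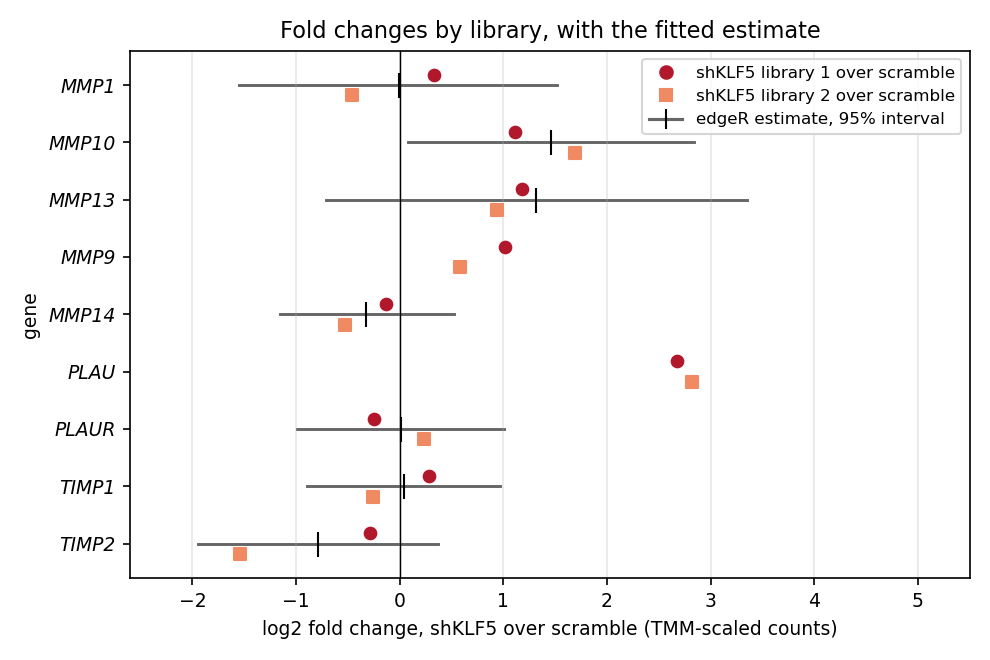
Log2 fold change of shKLF5 library 1 and of shKLF5 library 2 over scramble after TMM scaling with a prior count of 2, with the edgeR estimate and its 95% interval for members that passed the filter other than PLAU. The interval of MMP10 is the only drawn one that lies above 0, and the pair of libraries lies on opposite sides of 0 for MMP1, PLAUR and TIMP1.

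Of the urokinase system, TE5 had the receptor but almost none of the protease. PLAU (ENSG00000122861; chromosome 10, 73909177 to 73917497, plus strand) had 12 and 13 counts in shKLF5 against 0 in scramble. With scramble set to a floor of 3 counts in that library, the bound for PLAU was at least 2.97-fold higher in library 1 and for library 2 at least 3.31-fold. The unadjusted p by edgeR's quasi-likelihood test was 0.00836 and the adjusted p 0.474. PLAU passed the filter through the shKLF5 libraries alone, so that its direction was set by the filter, and neither it nor this p supports anything. In all, 89 genes (0.431% of those tested) had 0 counts in scramble and at least 10 in both shKLF5 libraries, while 12 genes (0.0582%) had at least 10 in scramble and 0 in both shKLF5 libraries. C10orf55, which overlaps PLAU on the opposite strand, had 18 and 12 counts in shKLF5 against 6 in scramble, more than PLAU in library 1 and fewer in library 2.

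The receptor differed little by value after TMM scaling. PLAUR (ENSG00000011422; chromosome 19, 43646095 to 43670547, minus strand) had 478 and 648 counts in shKLF5 against 422 in scramble, or 13.3 and 18.6 CPM in shKLF5 against 15.9 CPM in scramble. Scramble lay between the shKLF5 libraries. The log2 fold change was 0.01 with SE 0.43 and a 95% interval of -0.99 to 1.01, so that a change of more than about 2-fold in either direction lies outside the interval. The interval does not cover the choice of scaling. With library size alone the log2 fold change of PLAUR was 0.44. Of 16 transcripts, PLAUR-203 held most counts, 394 and 492 in shKLF5 and 345 in scramble. PLAUR-214 had 0 and 41 counts in shKLF5 against 0 in scramble, a difference between the shKLF5 libraries themselves.

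TIMP1 and TIMP2 differed from each other in their values. TIMP1 (ENSG00000102265; chromosome X, 47582313 to 47586789, plus strand) overlaps SYN1 on the other strand (75 and 25 counts in shKLF5 against 17 in scramble) and had 1561 and 1044 counts in shKLF5 against 953 in scramble. After TMM scaling the levels were 43.6 and 30.0 CPM in shKLF5 against 35.8 CPM in scramble, which lay between them. The log2 fold change was 0.04 with SE 0.40 and a 95% interval of -0.89 to 0.97. TIMP2 (ENSG00000035862; chromosome 17, 78852977 to 78925387, minus strand) had 3020 and 1234 counts in shKLF5 against 2746 in scramble, or 84.3 and 35.5 CPM against 103 CPM. Both shKLF5 libraries were below scramble after TMM scaling, by 1.23-fold in library 1, which was above scramble with library size alone, and by 2.91-fold in library 2, and the gap between them was wider than that of library 1 from scramble. The log2 fold change was -0.79 with SE 0.50 and a 95% interval of -1.95 to 0.37, with an adjusted p by edgeR's test of 0.656.

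The 2 main transcripts of TIMP2 differed in their values. TIMP2-201 had 2443 and 887 counts in shKLF5 against 1830 in scramble, and TIMP2-203 had 524 and 246 counts against 878. Library 1 was thus above scramble for TIMP2-201 and below it for TIMP2-203 in counts. These splits are kallisto's estimates, and CEP295NL, which overlaps TIMP2 on the same strand, had 19 and 42 counts in shKLF5 against 4 in scramble.

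Ratios of TPM within a library do not depend on how libraries are scaled to each other. TIMP1 over TIMP2 was 2.45 and 3.92 in shKLF5 against 1.60 in scramble. MMP14 over TIMP2 was 1.92 and 3.27 in shKLF5 against 1.62 in scramble, and MMP14 over TIMP1 was 0.783 and 0.835 in shKLF5 against 1.02 in scramble. In each of these ratios both shKLF5 libraries lay on the same side of scramble. With 2 libraries against 1 an exact permutation test cannot go below 0.333, so no test was made.

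Promoter sequence was available for 5 members in 6 windows, from RefSeq on GRCh38.p14, each running from 250 bases before the start site to 50 after it. Members of the AP-1 family, which bind TGANTCA, and factors of the KLF and SP families, which bind boxes such as CCNCNCCC (GGGNGNGG on the other strand), are known regulators of this group of genes. Both strands were searched. Of 35116 windows of 300 bases in the same table, 7.71% held the AP-1 letters and 56.2% the KLF/SP letters. The windows of MMP10 and PLAUR are shown because they held the AP-1 letters, and that of TIMP1 because it held the most KLF/SP matches. Capitals mark every match of either motif, read along the gene's own strand. The MMP10 window (chr11:102780579-102780878, minus strand) held TGAATCA at bases 184 to 190 and 0 KLF/SP matches. The PLAUR window (chr19:43670120-43670419, minus strand) held TGAGTCA at bases 65 to 71 and 2 KLF/SP matches. The TIMP1 window (chrX:47582186-47582485, plus strand) held 0 matches of TGANTCA and 8 KLF/SP matches, some of which overlap. Over all windows the median was 1 KLF/SP match. Sites that depart from these letters were not counted.
MMP10: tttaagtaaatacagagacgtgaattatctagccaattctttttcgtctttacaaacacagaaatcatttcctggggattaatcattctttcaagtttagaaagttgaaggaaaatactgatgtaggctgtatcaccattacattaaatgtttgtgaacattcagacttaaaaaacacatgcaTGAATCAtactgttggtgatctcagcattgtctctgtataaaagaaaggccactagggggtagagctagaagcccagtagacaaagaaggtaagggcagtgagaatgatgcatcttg
PLAUR: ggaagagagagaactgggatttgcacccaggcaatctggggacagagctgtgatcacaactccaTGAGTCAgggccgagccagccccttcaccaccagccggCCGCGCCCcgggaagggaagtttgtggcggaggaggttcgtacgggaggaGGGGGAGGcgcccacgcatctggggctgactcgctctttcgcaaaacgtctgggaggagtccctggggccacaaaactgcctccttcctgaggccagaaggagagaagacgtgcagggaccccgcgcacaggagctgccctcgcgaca
TIMP1: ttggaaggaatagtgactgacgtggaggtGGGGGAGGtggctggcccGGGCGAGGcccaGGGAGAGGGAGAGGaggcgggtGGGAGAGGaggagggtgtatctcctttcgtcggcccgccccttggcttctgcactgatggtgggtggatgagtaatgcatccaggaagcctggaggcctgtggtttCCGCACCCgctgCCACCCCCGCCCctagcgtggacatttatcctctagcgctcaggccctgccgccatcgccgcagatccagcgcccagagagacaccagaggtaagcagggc

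The window of MMP14 held 1 KLF/SP match and 0 AP-1 matches. The windows of PLAU, at its 2 start sites, held 0 and 2 KLF/SP matches and 0 AP-1 matches. A match is a run of letters and not a measured binding site.

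Of 14 AP-1 and ETS factors, 9 lay above scramble in each shKLF5 library and 3 below it after TMM scaling, against 9 and 0 with library size alone. Their median was 1.06 on the log2 scale, against 0.039 over all genes tested. By edgeR's quasi-likelihood test 0 were called over all genes and 8 had an unadjusted p under 0.05, all higher, while DESeq2 called 3. Over all genes tested the shares were 37.9% above scramble in each library after TMM scaling, 5.68% higher at that limit and 0.562% called by DESeq2. Of both the 9 and the 8, 1 (FOS) passed the filter through the shKLF5 libraries alone, which set its direction. The list was chosen with earlier results of these data known, so its counts are no independent support. FOSB and JUN, subunits of AP-1, stood at log2 fold changes of 2.48 (SE 0.62) and 2.61 (SE 0.70). By library, FOSB was at 1.83 in shKLF5 library 1 and 2.90 in library 2, and JUN at 1.54 and 3.22. ATF3, a stress-induced factor that pairs with JUN proteins, stood at 2.60 (SE 0.83), with 1.15 in library 1 and 3.30 in library 2, and ETV5, an ETS factor downstream of ERK, at 1.13 (SE 0.36).

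Among 17 other metalloproteinases, 16 had values and MMP12 was not analysed here. Of the 12 that passed the filter, 6 lay above scramble in each shKLF5 library, 2 lay below it in each and 4 were split after TMM scaling, against 7, 0 and 5 with library size alone. Their median was 0.12 on the log2 scale, against 0.039 over all genes tested. By edgeR's test 0 were called and 3 had an unadjusted p under 0.05, all higher, where 5.68% of all genes were higher at that limit, and DESeq2 called 0. After TMM scaling 37.9% of all genes tested lay above scramble in each shKLF5 library and 36.5% below it. MMP24, a membrane-type enzyme, had 120 and 119 counts in shKLF5 against 29 in scramble and a log2 fold change of 1.63 (SE 0.60). MMP19 had 36 and 55 counts in shKLF5 against 7 in scramble. MMP8, the collagenase of neutrophils, had 6 and 18 counts against 1, and MMP20, the protease of tooth enamel, had 5 and 12 against 0. MMP3, MMP8, MMP19 and MMP20 passed the filter through the shKLF5 libraries alone, as 19.2% of all genes tested did, so their direction was set by the filter.

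The plasminogen system apart from PLAU and PLAUR held the widest difference by single library among the related genes. SERPINB2, plasminogen activator inhibitor 2, a urokinase inhibitor of keratinocytes, had 9 and 14 counts in shKLF5 against 135 in scramble, with a log2 fold change of -3.94 with SE 0.62 and a 95% interval of -5.37 to -2.52. Its adjusted p was 0.255 by edgeR's quasi-likelihood test, 0.0359 by edgeR's legacy fit and 0.00496 by DESeq2. The cell-surface plasminogen receptor of ANXA2 and S100A10 was lower by value in both subunits. ANXA2 stood at 892 and 445 CPM in shKLF5 against 1522 CPM in scramble, and S100A10 at 144 and 127 CPM against 270 CPM. ENO1, an enolase that can also bind plasminogen, had a log2 fold change of -0.64 (SE 0.36). Of 13 such genes 11 passed the filter, of which 4 were higher and 7 lower in both libraries after TMM scaling, against 5 and 4 with library size alone. Their median was -0.45 on the log2 scale after TMM scaling and -0.02 with library size alone, and 0 were called by edgeR's test. An unadjusted p under 0.05 was reached by 3, all lower, where 3.5% of all genes were lower at that limit, and DESeq2 called 1, SERPINB2. Of all genes tested, 37.9% were higher and 36.5% lower in both libraries after TMM scaling, and DESeq2 called 0.562%.

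Other inhibitors and pericellular proteases differed in both directions, and the balance of the inhibitors turned with the scaling. Of 11 inhibitors 8 passed the filter, with 3 above scramble and 5 below it in each shKLF5 library and a median of -0.32 on the log2 scale after TMM scaling, but 4 above and 3 below and a median of 0.11 with library size alone. TIMP3, the inhibitor that stays bound to matrix, had 3255 and 1095 counts in shKLF5 against 3595 in scramble, so that library 2 was far lower than library 1, as with TIMP2. The inhibitors of elastase PI3 and SLPI had log2 fold changes of -2.38 (SE 0.59) and -1.23 (SE 0.41), and A2M, a broad protease trap, had 11 and 11 counts in shKLF5 against 1 in scramble. Of 19 pericellular proteases 16 passed the filter, with 3 above scramble in each shKLF5 library, 11 below it in each and 2 split, and a median of -0.79, against 4, 8 and 4 and a median of -0.36 with library size alone. Of all genes tested 37.9% were above and 36.5% below scramble in each shKLF5 library after TMM scaling. Among those with 500 to 5000 counts, the range that holds 9 of the 16, 52.0% were below it after TMM scaling. Of these 9 proteases, 9 were below it. The list was chosen with earlier results of these data known, so this count is no independent support. HPSE, the heparanase that cuts heparan sulfate, stood at -1.68 (SE 0.41), CTSB, the lysosomal protease cathepsin B, at -1.58 (SE 0.47), ADAMTS1 at -1.52 (SE 0.39) and TMPRSS4, a membrane serine protease, at -1.26 (SE 0.38). By edgeR's test 0 of the inhibitors and 0 of these proteases were called over all genes, with unadjusted p under 0.05 for 1 higher and 2 lower inhibitors and for 5 proteases, all lower. Of all genes tested, 5.68% were higher and 3.5% lower at that limit. DESeq2 called 0 genes of either list and 0.562% of all genes. Passage through the shKLF5 libraries alone set the direction of 2 of the 3 higher inhibitors, A2M among them, of 2 of the 3 higher proteases and of 2 of the 4 higher plasminogen system genes.

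**Figure D4:**
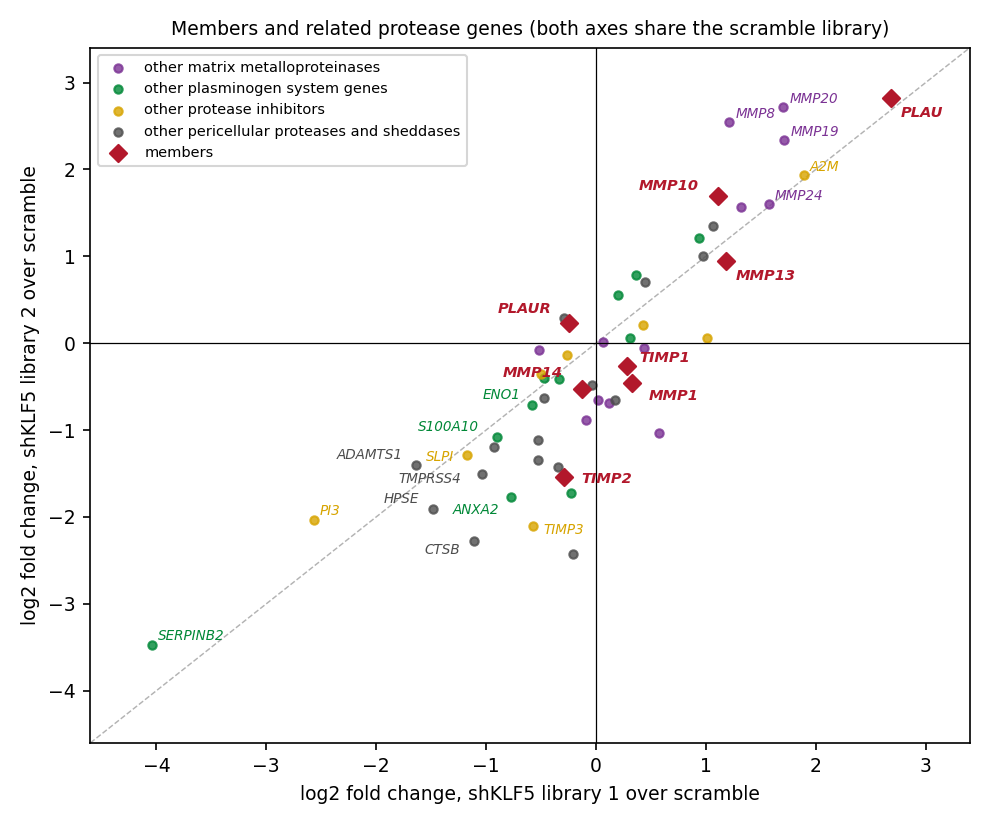
Log2 fold change over scramble in shKLF5 library 1 (x axis) and in shKLF5 library 2 (y axis) after TMM scaling, for members and the related proteases, inhibitors and plasminogen system genes that passed the filter, without the AP-1 and ETS factors; the dashed line marks equal values. SERPINB2 lies lowest at -4.04 and -3.47, PLAU highest at 2.68 and 2.82, and both axes share the scramble library.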

How the data were processed

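RNA of TE5 cells was sequenced in 3 libraries, 2 of shKLF5 and 1 of scramble, with TruSeq kits on a HiSeq instrument, per the labels' protocols. The submitters' processing notes name kallisto, DESeq2 and the build hg19, with no versions. Per the file headers, the authors deposited kallisto's estimated counts for each transcript, as fractional values without normalisation. The deposited TPM, also named in the file headers, divide counts by effective length and give all libraries an equal total. Neither strand use nor the transcript set is given in the sources used here.

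Of 196354 transcripts, 181857 (92.6%) had an Ensembl identifier in GENCODE 29 (GRCh38, source of the printed coordinates) and were summed per gene. The unmatched ones held 3.05% to 3.42% of counts. Sums were rounded and tested with edgeR 4.0.16 (R 4.3.3): filterByExpr (10 counts in at least 1 library and 15 in all), TMM, the quasi-likelihood F test without the legacy option, 1 residual degree of freedom, and Benjamini-Hochberg adjustment over 20629 genes at 0.05. TMM factors were 1.11 and 1.10 in shKLF5 and 0.82 in scramble. SE is the absolute log2 fold change over the root of F. CPM are TMM-scaled. Single-library log2 fold changes used a prior count of 2, and a fold against 0 a floor of 3 counts. Intervals on counts and the floor cover counting error only, since no spread between libraries enters them. Reads carried no molecular identifiers. The tests were also run on simulated counts, with less spread than these data and changes only in genes with higher counts. That run does not show how the tests perform on these libraries. Alternatives were other scalings, filters and tests (DESeq2 1.42.0, limma 3.58.1), and leaving out each shKLF5 library.

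The members, the lists of related genes and markers and the motifs were chosen with earlier results of these data known. The naming rule took all members, KLF5 and, from each related list, up to 4 genes with the smallest p; the grouping of genes by abundance was added after the data were seen. Protein sequences were not used here.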

Additional observations from a re-analysis of the deposited data

How the results depend on the processing

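No paired analysis was possible because the scramble group has 1 library with no replicate number. Of the members 0 were called under any of the 10 alternatives that give a test. Over all genes DESeq2 called 116 and edgeR's legacy fit 21, against 0 in the main test. Of the abundant members, MMP14 turned sign with the scaling. The median log2 fold change of all genes was 0.467 with library size alone and 0.264 on log2(TPM + 1), against 0.039 with TMM. With library size alone, and by limma on TPM with a pseudocount of 1 or 0.1, 0 members were lower in both shKLF5 libraries, against 2 with TMM. MMP14 turned to 0.11 with library size alone and to 0.13 and 0.14 with pseudocounts of 1 and 0.1, and MMP1 turned to 0.42, 0.15 and 0.31 in that order and to 0.06 among protein-coding genes alone. With no filter PLAUR turned to -0.03 and TIMP1 to just below 0 (0.00). A mean CPM of at least 5 left 0 members higher in both, since MMP9, MMP10, MMP13 and PLAU were not among those tested. It left 1 member lower in both, against 2 in the main test, although MMP14 (-0.14) and TIMP2 (-0.61) were both still tested. With 1 shKLF5 library left out, 5 to 6 members were higher and 3 to 4 lower than scramble, as values with no test. MMP10 kept its direction, from 1.15 to 1.89 over the 9 other fits (adjusted p from 0.294 to 0.851), and stood at 1.69 without library 1 and 1.14 without library 2. TIMP2 kept its direction, from -0.83 to -0.36, but stood at -0.26 without library 2 and -1.54 without library 1. The fitted value of PLAU, from 0.25 to 6.67, depends on the prior count, as scramble had 0 counts. The cause of the other shifts was not tested. The counts of MMP9, MMP13 and PLAU limit what can be detected for them.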
